A study of Homo sapiens with 6 samples.

Results

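PAX6_Ta KO and PBX3_Cl KO are K562 lines, each labelled as a knockout of 1 ultraconserved element (UCE), and their transcriptomes are set directly against each other here. The comparison holds 4 of the 6 libraries of the series, replicates 1 and 2 of each knockout, chosen by the sample labels (PAX6_Tarzan Knockout and PBX3_Claudia Knockout). The remaining libraries, replicates 1 and 2 of Control K562 (genotype WT), are not in the contrast, and their levels are given beside the knockouts only to show where an unedited culture lay. Both knockouts were made in the same way. K562 cells received a plasmid carrying Cas9 and a pair of guide RNAs driven by a U6 and an H1 promoter, transfected cells were selected with puromycin, and single clones were checked by PCR and Sanger sequencing. The lines thus share transfection, selection and cloning, which Control is not labelled to have had. Each line may descend from a single cell, so the loss of one element, the loss of the other and differences between founder cells cannot be told apart. No source used here says that replicates 1 and 2 were separate cultures, so the p-values speak only of how far these libraries lie apart, a spread that could be technical.

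K562 is an established human leukaemia line with a BCR-ABL1 fusion, an abnormal chromosome number and features of early red cell precursors, among them the embryonic and fetal globins. UCEs are stretches of genome kept almost without change between distant mammals, and many act as enhancers of neighbouring developmental genes or produce transcripts of their own. PAX6 is a transcription factor of eye, brain and pancreas. PBX3 is a homeodomain protein of the TALE class, which binds DNA together with HOX proteins.

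The guides show where the lines were cut. Each is written 5′ to 3′ in lower case with the protospacer adjacent motif, read from the GRCh37 sequence next to its only match on the chromosome, in capitals.
PAX6_Ta, U6 guide: gctttctgtgcggttgtggaTGG
PAX6_Ta, H1 guide: caagtccattccttccccagTGG
PBX3_Cl, U6 guide: ctcagtactgcaaagactgtGGG
PBX3_Cl, H1 guide: gcttgtacagttaagcatgaTGG
The PAX6_Ta guides lay at chr11:31809917-31809939 on the reverse strand and chr11:31811316-31811338 on the forward strand, and the bases between their cuts number 1410. They flank the 434 bp of PAX6_Ta (chr11:31810437-31810870, 28.3% GC), which the annotation places in the 3′ UTR of PAX6 on the reverse strand and, on the forward strand, in an exon of ELP4. The PBX3_Cl guides lay at chr9:128456987-128457009 on the forward strand and chr9:128457970-128457992 on the reverse strand, with 972 bases between their cuts. They flank the 222 bp of PBX3_Cl (chr9:128457564-128457785, 37.8% GC), which lies in an intron of MAPKAP1. Counts per gene do not show whether either segment was lost.

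The values are raw read counts per gene, between 45912044 and 49843547 per knockout library and 47949941 and 60908470 in Control. Of 52088 entries in the table, 20746 had enough counts to be tested. Levels are given as CPM, counts scaled by TMM to a common library size, always replicate 1 before replicate 2, and they compare libraries for 1 gene, not genes with each other. A fold change is the log2 ratio of PAX6_Ta KO to PBX3_Cl KO with its standard error, so a positive value means a higher level in PAX6_Ta KO. A gene is called when the edgeR quasi-likelihood test with Benjamini-Hochberg adjustment over all 20746 genes gave an adjusted p below 0.05. Where the lower line had no read, the fold is given as a bound against a floor of 3 counts over its libraries, and where it had 1 to 3 reads, as a ratio with an exact 95% interval. Bounds and intervals cover counting error only.

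Both lines kept the markers of K562. GATA1 and TAL1, transcription factors of the erythroid lineage, stood at 277 and 219 and 270.03 and 246 CPM in PAX6_Ta KO and at 332 and 342 and 334 and 385 in PBX3_Cl KO, and neither was called (adjusted p = 0.22 and 0.23, edgeR). Several defining markers of other cells were near 0. MS4A1 of B cells had no read in any of the 6 libraries, and PAX5, the myeloid peroxidase gene MPO, the fibroblast receptor gene PDGFRA and the epithelial cadherin gene CDH1 had between 0 and 4 reads in each knockout library. The collagen genes COL1A1 and COL1A2 and the epithelial EPCAM, also on the list of such markers, had reads in all 6 libraries.

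The lines differed at 2483 of the 20746 tested genes, 12.0% of them. In PAX6_Ta KO 1091 genes were higher, 5.26% of those tested, and in PBX3_Cl KO 1392 were higher, 6.71%. The median absolute log2 fold change of the called genes was 1.68, and 949 of the former and 931 of the latter differed at least 2-fold. At an unadjusted p under 0.05 the counts were 2264 and 2785. Which line had more calls depended on the setting, with 1229 genes higher in PAX6_Ta KO and 1152 higher in PBX3_Cl KO under upper-quartile factors, and 1242 and 1230 when the knockout libraries were fitted alone. Some genes passed the low-count filter, about 10 reads in at least 2 libraries, only through 1 of the knockouts, so that their tested values are not independent of the line in which they are high. Of the 19153 genes that did not depend on 1 knockout to pass, 810 were higher in PAX6_Ta KO (4.23%) and 1226 higher in PBX3_Cl KO (6.40%). Of the called genes, 96 had no read in the lower line and 189 had 1 to 3. Replicates of PBX3_Cl KO lay further apart than those of PAX6_Ta KO, with a median absolute log2 difference per gene of 0.307 against 0.199. The counts of called genes fell to 662 and 769 without PAX6_Ta KO replicate 1, and to 828 and 606 without PAX6_Ta KO replicate 2, fits in which 1 library stands for its line and is assumed to vary like the others.

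**Figure D1:**
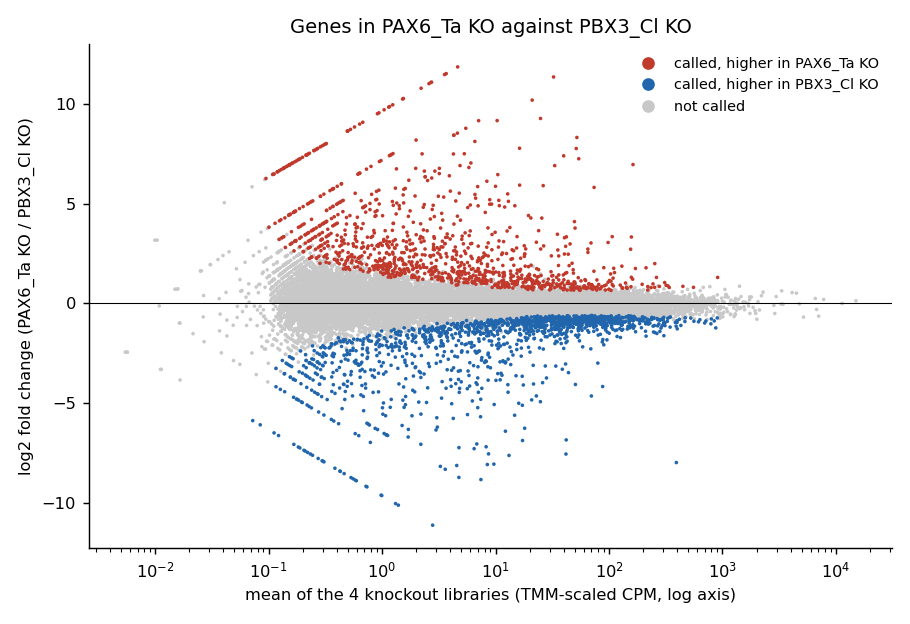
Fitted log2 fold change of PAX6_Ta KO over PBX3_Cl KO (vertical axis) against the mean level of the 4 knockout libraries in TMM-scaled CPM (horizontal log axis) for the 20746 tested genes, each point 1 gene. The 1091 genes called higher in PAX6_Ta KO are red, the 1392 called higher in PBX3_Cl KO blue. The straight lines of points at the left are genes with few or no reads in one line, whose fitted values depend on the prior count.

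The genes next to the targeted elements were compared first. PAX6 stood at 13.4 and 10.2 CPM in PAX6_Ta KO, 9.82 and 8.73 in PBX3_Cl KO and 9.66 and 6.198 in Control (log2 fold change 0.35 ± 0.27, edgeR adjusted p = 0.51). ELP4, a subunit of the Elongator complex that modifies transfer RNAs, stood at 24.5 and 20.9 CPM in PAX6_Ta KO, 25.9 and 17.2 in PBX3_Cl KO and 14.9 and 12.1 in Control (log2 fold change 0.07 ± 0.24, edgeR adjusted p = 0.90). Reads of these overlapping genes can be told apart only if strand was used in counting, which the sources used here do not give, and both have exon sequence between the PAX6_Ta cuts. PBX3 stood at 5.87 and 5.204 CPM in PAX6_Ta KO, 5.33 and 6.11 in PBX3_Cl KO and 0.883 and 0.97 in Control (log2 fold change -0.05 ± 0.29, edgeR adjusted p = 0.95), and MAPKAP1, which encodes a subunit of mTOR complex 2, at 92.6 and 76.6 CPM in PAX6_Ta KO, 103 and 83.2 in PBX3_Cl KO and 85.9 and 76.99 in Control (log2 fold change -0.14 ± 0.20, edgeR adjusted p = 0.75). None of these 4 genes passed the test. PBX3 was lower in Control than in both knockouts.

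RCN1, a calcium-binding protein of the secretory pathway 301.8 kb beyond PAX6_Ta, was 1 of 2 called genes among the 10 tested within 1 Mb. It stood at 5.79 and 4.16 CPM in PAX6_Ta KO, 0.113 and 0.0218 in PBX3_Cl KO and 0.333 and 0.455 in Control (log2 fold change 6.16 ± 0.68, edgeR adjusted p = 2.2e-05), so the 2 lines did not overlap and Control lay between them. Within 5 Mb of PAX6_Ta 49 of 141 genes in the table passed the filter, of which 5 were called higher in PAX6_Ta KO and 5 higher in PBX3_Cl KO (5.26% and 6.71% of all tested genes), with a median log2 fold change of 0.02. Without the genes that passed only through 1 knockout, 2 and 4 of 42 were called. The other called gene within 1 Mb was WT1, a zinc finger factor of kidney and leukaemia, at 72.6 and 61.8 CPM in PAX6_Ta KO, 106 and 101 in PBX3_Cl KO and 69.6 and 63.6 in Control (log2 fold change -0.63 ± 0.19, edgeR adjusted p = 0.048; -0.75, adjusted p = 0.16 and -0.51, adjusted p = 0.44 without PAX6_Ta KO replicate 1 or 2, and -0.55, adjusted p = 0.087 without PBX3_Cl KO replicate 1; adjusted p = 0.082 and 0.082 without Control replicate 1 or 2). WT1 also lost its call with DESeq2 (-0.60, adjusted p = 0.063) and with no filter on low counts, other size factors or the knockout libraries alone (adjusted p between 0.054 and 0.12), and it overlaps its antisense gene WT1-AS, whose reads could not be told apart if strand was not used. The 336 tested genes of 11p outside the 5 Mb window had a median of 0.03 with 24 and 15 calls. LMO2, a bridging protein of the erythroid transcription complex 2069.3 kb away, stood at 95.8 and 89.8 CPM in PAX6_Ta KO, 57.5 and 39.2 in PBX3_Cl KO and 47.9 and 50.7 in Control (log2 fold change 0.94 ± 0.21, edgeR adjusted p = 0.012; 0.89, adjusted p = 0.07 without PAX6_Ta KO replicate 1). IFTAP, a gene of intraflagellar transport 4805.0 kb away, was higher in PBX3_Cl KO, at 2.08 and 1.03 CPM in PAX6_Ta KO, 10.3 and 6.68 in PBX3_Cl KO and 1.62 and 1.27 in Control. IFTAP differed by -2.45 ± 0.38 on the log2 scale (edgeR adjusted p = 0.0015). Its neighbour RAG1, a subunit of the recombinase that assembles antigen receptor genes in lymphocytes, was higher there too, at 4.73 and 4.37 CPM in PAX6_Ta KO, 11.2 and 9.95 in PBX3_Cl KO and 3.65 and 3.45 in Control (log2 fold change -1.22 ± 0.26, edgeR adjusted p = 0.0087; -1.28, adjusted p = 0.068 without PAX6_Ta KO replicate 1 and -1.16, adjusted p = 0.11 without replicate 2). The 10 called genes became 4 without PAX6_Ta KO replicate 1 (2 in each direction) and 4 without replicate 2 (3 higher in PAX6_Ta KO and 1 higher in PBX3_Cl KO), and without PBX3_Cl KO replicate 1 the 5 higher in PBX3_Cl KO became 3.

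Around PBX3_Cl the calls ran mostly one way. Within 5 Mb, 156 of 248 genes passed the filter, and 23 were called higher in PBX3_Cl KO against 5 higher in PAX6_Ta KO, a total of 28 (6.71% and 5.26% of all tested genes). Without the genes that passed only through 1 knockout they were 21 and 5 of 149. None of the 21 tested genes within 1 Mb was called. The median log2 fold change of the window was -0.08, and the other 428 tested genes of 9q had a median of 0.01 with 14 and 24 calls. Without PAX6_Ta KO replicate 1 the window held 17 calls, and 15 and 14 genes were higher in PBX3_Cl KO without PAX6_Ta KO replicates 1 and 2. The 5 genes higher in PAX6_Ta KO became 2 without PAX6_Ta KO replicate 1, 8 without PBX3_Cl KO replicate 2 and 8 and 9 without Control replicates 1 and 2.

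The nearest called gene was NEK6, a kinase of mitotic spindle assembly (chr9:127019885-127115586), 1342.0 kb below PBX3_Cl. It stood at 2.33 and 3.11 CPM in PAX6_Ta KO, 21.96 and 21.4 in PBX3_Cl KO and 2.25 and 3.56 in Control. NEK6 differed by -2.99 ± 0.28 on the log2 scale (edgeR adjusted p = 3.3e-05). PAX6_Ta KO and Control thus shared a low level and PBX3_Cl KO stood alone. NIBAN2, a regulator of cell survival at the plasma membrane 1809.8 kb on the other side, had 42.4 and 35.8 CPM in PAX6_Ta KO, 155 and 120.4 in PBX3_Cl KO and 83.2 and 70.6 in Control. NIBAN2 differed by -1.81 ± 0.20 on the log2 scale (edgeR adjusted p = 1.1e-04). Control lay between the lines for this gene. In a run of neighbours between 2464.8 and 2627.0 kb from the element PBX3_Cl KO was again the high line, with PAX6_Ta KO near Control. BBLN stood at 61.6 and 44.1 CPM in PAX6_Ta KO, 128 and 139 in PBX3_Cl KO and 62.6 and 43.7 in Control. BBLN differed by -1.34 ± 0.23 on the log2 scale (edgeR adjusted p = 0.0023). CIZ1, which promotes DNA replication, stood at 253 and 213 CPM in PAX6_Ta KO, 502 and 629.6 in PBX3_Cl KO and 216 and 208 in Control. CIZ1 differed by -1.28 ± 0.21 on the log2 scale (edgeR adjusted p = 0.0018). GOLGA2, a structural protein of the Golgi stack (chr9:131018108-131038305), stood at 101 and 85.4 CPM in PAX6_Ta KO, 258 and 242 in PBX3_Cl KO and 103 and 87.8 in Control. GOLGA2 differed by -1.42 ± 0.19 on the log2 scale (edgeR adjusted p = 4.8e-04). SWI5, TRUB2 and COQ4, which act in recombination repair, RNA modification and coenzyme Q synthesis, had log2 fold changes of -1.23 ± 0.23, -1.06 ± 0.21 and -0.97 ± 0.22 (edgeR adjusted p = 0.0038, 0.0054 and 0.012). The calls of SWI5 and TRUB2 were lost without PAX6_Ta KO replicate 2 (-1.02, adjusted p = 0.052 and -0.92, adjusted p = 0.074) and that of COQ4 without PAX6_Ta KO replicate 1 (-0.89, adjusted p = 0.10). DNM1, which encodes a dynamin of synaptic vesicle uptake and lies within the run, differed from it in Control, at 5.41 and 5.74 CPM in PAX6_Ta KO, 10.8 and 16.8 in PBX3_Cl KO and 10.2 and 9.09 in Control. DNM1 differed by -1.31 ± 0.26 on the log2 scale (edgeR adjusted p = 0.0068). CERCAM, an adhesion-related protein 2716.2 kb away and the next called gene, was higher in PAX6_Ta KO at 33.3 and 24.01 CPM in PAX6_Ta KO, 9.66 and 6.05 in PBX3_Cl KO and 44.5 and 39.1 in Control. CERCAM differed by 1.87 ± 0.25 on the log2 scale (edgeR adjusted p = 5.0e-04).

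At the far ends of the window, PHF19, an accessory subunit of Polycomb repressive complex 2, stood at 161 and 144 CPM in PAX6_Ta KO, 327 and 346 in PBX3_Cl KO and 142 and 123 in Control. PHF19 differed by -1.14 ± 0.19 on the log2 scale (edgeR adjusted p = 0.0021). PSMD5, an assembly chaperone of the proteasome, stood at 67.1 and 60.6 CPM in PAX6_Ta KO, 175 and 119 in PBX3_Cl KO and 80.6 and 74.5 in Control. PSMD5 differed by -1.20 ± 0.22 on the log2 scale (edgeR adjusted p = 0.0031). NCS1, a neuronal calcium sensor, stood at 28.5 and 19.8 CPM in PAX6_Ta KO, 70.1 and 52.6 in PBX3_Cl KO and 4.13 and 4.08 in Control. NCS1 differed by -1.35 ± 0.23 on the log2 scale (edgeR adjusted p = 0.0022). In all 3 the PBX3_Cl KO libraries were highest, and for PHF19 and PSMD5 the PAX6_Ta KO libraries lay close to Control. PTGS1, the constitutive cyclooxygenase, was higher in PBX3_Cl KO at 45.97 and 38.2 CPM in PAX6_Ta KO, 135 and 165 in PBX3_Cl KO and 22.9 and 7.39 in Control. PTGS1 differed by -1.83 ± 0.37 on the log2 scale (edgeR adjusted p = 0.0075). CRB2, a cell polarity protein, was one of the few in the opposite direction, at 7.12 and 8.19 CPM in PAX6_Ta KO, 1.86 and 3.21 in PBX3_Cl KO and 15.3 and 9.84 in Control. CRB2 differed by 1.59 ± 0.32 on the log2 scale (edgeR adjusted p = 0.007).

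**Figure D2:**
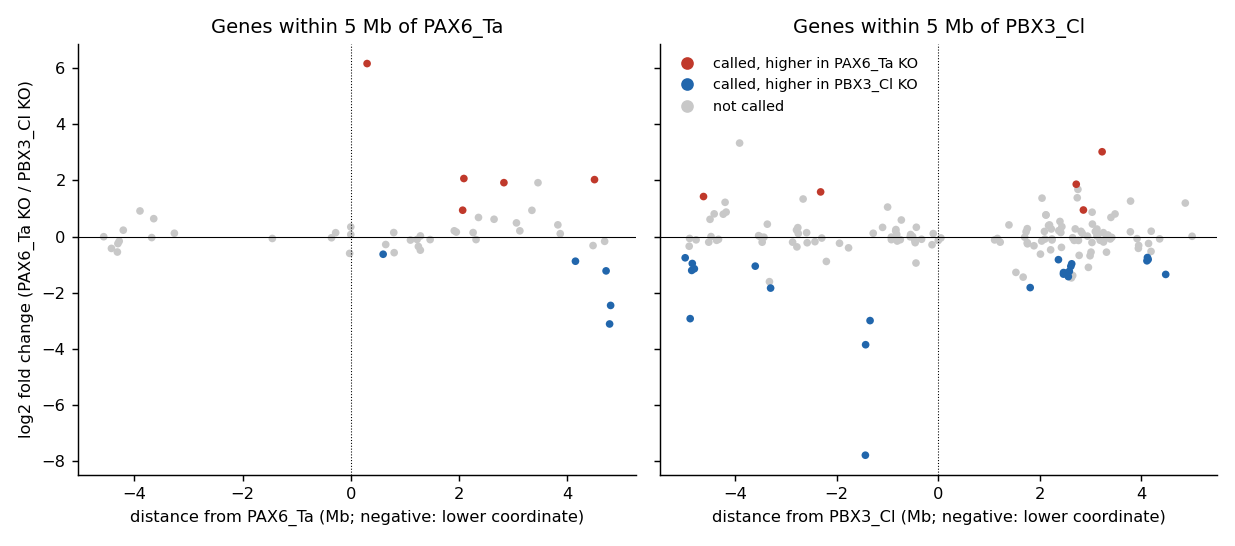
Fitted log2 fold change of PAX6_Ta KO over PBX3_Cl KO (vertical axis) of the tested genes within 5 Mb of each element against their distance from it in Mb (horizontal axis), 49 genes around PAX6_Ta at the left and 156 around PBX3_Cl at the right, with called genes coloured. RCN1 is the red point above 6 next to PAX6_Ta. No point within 1 Mb of PBX3_Cl is coloured, and blue points gather between 2 and 3 Mb beyond it.

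Some genes were nearly silent in one line and well expressed in the other. At a mean of at least 10 CPM in one line and under 0.5 in the other, limits set after the values were seen, 24 genes were on in PAX6_Ta KO alone and 16 in PBX3_Cl KO alone. Control was under 0.5 CPM for 9 of the 24 and 6 of the 16, at 10 or more for 2 and 6, and between for 13 and 4. The 24 lay on 18 chromosome arms and the 16 on 12.

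The genes highest in PAX6_Ta KO relative to PBX3_Cl KO were of several kinds. ADGRA3, an adhesion receptor coupled to G proteins (chr4:22346694-22517689), stood at 64.7 and 65.1 CPM in PAX6_Ta KO, 0 and 0.0437 in PBX3_Cl KO and 2.13 and 1.49 in Control, a ratio of 2917 with a 95% interval from 807 to 24088, edgeR adjusted p = 4.9e-08. TLE4, a Groucho corepressor, stood at 46.97 and 37.2 CPM in PAX6_Ta KO, 0.0454 and 0.0218 in PBX3_Cl KO and 0.466 and 0.099 in Control, a ratio of 1253 with a 95% interval from 429 to 6080.3, edgeR adjusted p = 5.4e-07. In both genes the knockouts lay on either side of Control. LIN28A, an RNA-binding protein that blocks maturation of let-7 miRNAs and marks pluripotent and embryonic cells, stood at 106 and 102 CPM in PAX6_Ta KO, 0.295 and 0.349 in PBX3_Cl KO and 4.68 and 3.505 in Control. LIN28A differed by 8.32 ± 0.29 on the log2 scale (edgeR adjusted p = 4.2e-08). DLK1, a ligand related to Notch ligands that is expressed from the paternal allele, stood at 109.6 and 95.3 CPM in PAX6_Ta KO, 0.522 and 0.415 in PBX3_Cl KO and 15.2 and 32.4 in Control. DLK1 differed by 7.77 ± 0.39 on the log2 scale (edgeR adjusted p = 2.7e-07). PBX3_Cl KO had less than 1 CPM of each of these, and for LIN28A and DLK1 the order was PAX6_Ta KO, Control, PBX3_Cl KO with no overlap.

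A second set was low in Control as well as in PBX3_Cl KO. ENAH, an actin regulator that lengthens filaments at the leading edge, stood at 111 and 104 CPM in PAX6_Ta KO, 0.794 and 0.611 in PBX3_Cl KO and 0.117 and 0.238 in Control. ENAH differed by 7.25 ± 0.26 on the log2 scale (edgeR adjusted p = 4.9e-08). COBLL1 stood at 79.03 and 79.5 CPM in PAX6_Ta KO, 0.386 and 0.546 in PBX3_Cl KO and 1.299 and 0.792 in Control. COBLL1 differed by 7.40 ± 0.30 on the log2 scale (edgeR adjusted p = 5.4e-08). AKR1B1, aldose reductase, stood at 71.7 and 60.1 CPM in PAX6_Ta KO, 0.635 and 0.458 in PBX3_Cl KO and 0.849 and 0.653 in Control. AKR1B1 differed by 6.91 ± 0.27 on the log2 scale (edgeR adjusted p = 4.9e-08). EFS, an adaptor of Src kinase signalling, stood at 21.6 and 19.6 CPM in PAX6_Ta KO, 0.0227 and 0.0437 in PBX3_Cl KO and 0.15 and 0.178 in Control, a ratio of 617 with a 95% interval from 211 to 2992, edgeR adjusted p = 1.2e-07. CHSY3, a chondroitin synthase, stood at 15.5 and 12.9 CPM in PAX6_Ta KO, 0 and 0.0437 in PBX3_Cl KO and 0.0333 and 0.0198 in Control, a ratio of 634 with a 95% interval from 175 to 5243, edgeR adjusted p = 9.3e-07. EPB41L3, a membrane skeleton protein, B3GALNT1, which builds the globoside of the P blood group, and CHDH, a mitochondrial choline dehydrogenase, had 57.1 and 42.4, 10.95 and 10.9 and 13.6 and 12.6 CPM in PAX6_Ta KO, at most 0.109 CPM in PBX3_Cl KO and 1.199 and 0.851, 0.2 and 0.178 and 1.57 and 1.35 CPM in Control.

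Of the genes highest in PBX3_Cl KO relative to PAX6_Ta KO, some were also on in Control. ZNF521, a zinc finger cofactor of blood progenitors (chr18:22641888-22932154), stood at 0.0416 and 0.095 CPM in PAX6_Ta KO, 20.4 and 18.1 in PBX3_Cl KO and 55.6 and 51.8 in Control. ZNF521 differed by -8.07 ± 0.48 on the log2 scale (edgeR adjusted p = 4.9e-08). PGR, the progesterone receptor, stood at 0.312 and 0.266 CPM in PAX6_Ta KO, 32.3 and 36.3 in PBX3_Cl KO and 16.8 and 27.6 in Control. PGR differed by -6.88 ± 0.35 on the log2 scale (edgeR adjusted p = 1.8e-07). UGT8, which makes galactosylceramide, a lipid of myelin, stood at 0.0625 and 0.057 CPM in PAX6_Ta KO, 18.6 and 15.1 in PBX3_Cl KO and 15.99 and 13.1 in Control. UGT8 differed by -8.09 ± 0.52 on the log2 scale (edgeR adjusted p = 1.2e-07). TBC1D4, a Rab GTPase-activating protein of glucose transporter traffic, stood at 0.833 and 0.608 CPM in PAX6_Ta KO, 85.97 and 80.5 in PBX3_Cl KO and 29.5 and 33.9 in Control. TBC1D4 differed by -6.85 ± 0.24 on the log2 scale (edgeR adjusted p = 4.9e-08). In these 4 genes PAX6_Ta KO was the line that stood apart, with all its libraries under 1 CPM.

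The others were low in Control too. COL5A1, a chain of type V collagen (chr9:137533649-137736689), stood at 0.458 and 0.418 CPM in PAX6_Ta KO, 59.5 and 107 in PBX3_Cl KO and 0.217 and 0.0594 in Control. COL5A1 differed by -7.56 ± 0.38 on the log2 scale (edgeR adjusted p = 2.9e-07). PTPRB, a receptor phosphatase of blood vessel cells, stood at 0.167 and 0.095 CPM in PAX6_Ta KO, 28.6 and 23.7 in PBX3_Cl KO and 1.15 and 1.13 in Control. PTPRB differed by -7.63 ± 0.40 on the log2 scale (edgeR adjusted p = 1.2e-07). PTPRR, another receptor phosphatase on 12q, stood at 0.125 and 0.076 CPM in PAX6_Ta KO, 19.2 and 7.903 in PBX3_Cl KO and 0.0999 and 0.0594 in Control. PTPRR differed by -7.05 ± 0.62 on the log2 scale (edgeR adjusted p = 5.9e-06). CLCN4, a chloride and proton exchanger, stood at 0.0416 and 0.019 CPM in PAX6_Ta KO, 17.4 and 12.2 in PBX3_Cl KO and 0.733 and 0.515 in Control, a ratio of 496 with a 95% interval from 169 to 2409, edgeR adjusted p = 5.0e-07. SYTL5, which tethers vesicles, TRPM2, a cation channel, and MIR548XHG, a host transcript of a miRNA, had 18.9 and 15.6, 13.6 and 12.1 and 17.96 and 14.9 CPM in PBX3_Cl KO and at most 0.125 in PAX6_Ta KO. The calls of ADGRA3 and of the other genes named since the silent and expressed sets were introduced were kept without any 1 of the 6 libraries. Among these genes at least TLE4, EFS, CHSY3, B3GALNT1 and PTPRR passed the low-count filter only through the line in which they were high. They had to be high there to be tested, so their calls, kept or not, are a description.

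**Figure D3:**
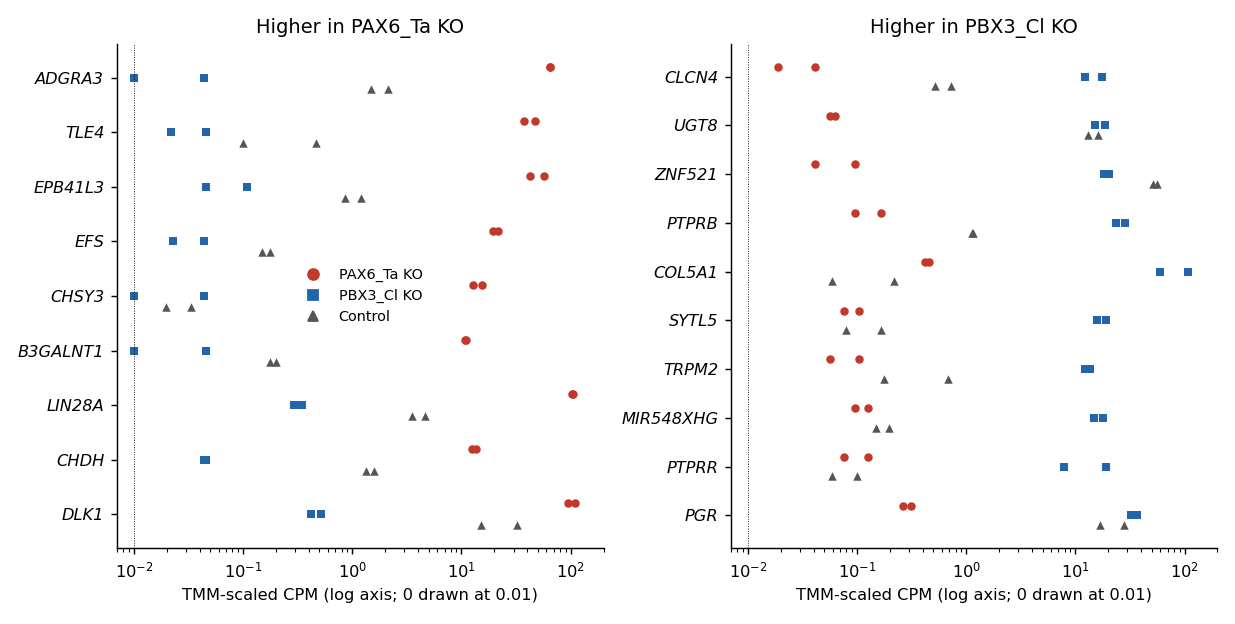
Level of named genes from the 10 called genes with the largest fitted fold change in each direction among those at 10 CPM or more in the higher line, as TMM-scaled CPM per library (horizontal log axis, 0 drawn at 0.01), each symbol 1 library of PAX6_Ta KO (circles), PBX3_Cl KO (squares) or Control (triangles). The symbols of the knockouts do not overlap for any gene shown, while Control lies near PAX6_Ta KO, near PBX3_Cl KO, between them or, for ZNF521, above both.

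Abundant genes chosen by their level differed by smaller folds. KRT8, an epithelial keratin that K562 also makes, stood at 1593 and 986 CPM in PAX6_Ta KO, 699 and 348 in PBX3_Cl KO and 709 and 537 in Control. KRT8 differed by 1.30 ± 0.33 on the log2 scale (edgeR adjusted p = 0.025). Its call was lost without PAX6_Ta KO replicate 1 (0.91, adjusted p = 0.13) or PBX3_Cl KO replicate 2 (0.87, adjusted p = 0.13). SERPINH1, the collagen chaperone, stood at 486 and 370.3 CPM in PAX6_Ta KO, 232 and 235 in PBX3_Cl KO and 174 and 177 in Control (log2 fold change 0.88 ± 0.21, edgeR adjusted p = 0.016; 0.66, adjusted p = 0.23 without PAX6_Ta KO replicate 1). HDGF, a growth factor of the nucleus, was higher in PBX3_Cl KO at 577 and 465 CPM in PAX6_Ta KO, 1214 and 1237 in PBX3_Cl KO and 788 and 554 in Control (log2 fold change -1.23 ± 0.24, edgeR adjusted p = 0.0055; -1.08, adjusted p = 0.056 without PAX6_Ta KO replicate 2). Of these 3 genes KRT8 varied most between replicates, in both knockouts.

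Most genes of the red cell programme were not called, and most of the membrane genes called were lower in PAX6_Ta KO. All 10 globin genes passed the filter, and 1 was called. HBE1, the embryonic globin of the beta cluster, stood at 5318 and 4419 CPM in PAX6_Ta KO, 3696 and 3005 in PBX3_Cl KO and 2617 and 2056 in Control (log2 fold change 0.54 ± 0.27, edgeR adjusted p = 0.24). The fetal genes HBG1 and HBG2 had log2 fold changes of 0.26 ± 0.25 and 0.32 ± 0.24 and the embryonic HBZ 0.03 ± 0.26 (edgeR adjusted p = 0.60, 0.47 and 0.96), and HBA1 and HBA2 -0.49 ± 0.20 and -0.41 ± 0.25 (edgeR adjusted p = 0.16 and 0.37). The pairs HBG1 with HBG2 and HBA1 with HBA2 are nearly identical in sequence, so reads may be split between their members. HBD, the minor adult globin, was called at 32.9 and 27.7 CPM in PAX6_Ta KO, 13.9 and 15.96 in PBX3_Cl KO and 10.2 and 6.99 in Control (log2 fold change 1.02 ± 0.23, edgeR adjusted p = 0.013; 0.89, adjusted p = 0.12 without PAX6_Ta KO replicate 1). KLF1, the erythroid Krüppel-like factor, stood at 291 and 224 CPM in PAX6_Ta KO and 379 and 391 in PBX3_Cl KO (log2 fold change -0.58 ± 0.22, edgeR adjusted p = 0.12).

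Of 36 genes of the red cell membrane and surface, 34 were tested, 9 were called higher in PBX3_Cl KO and 1 higher in PAX6_Ta KO, with a median log2 fold change of -0.38. All tested genes had a median of -0.01, 6.71% called higher in PBX3_Cl KO and 5.26% higher in PAX6_Ta KO. The 9 became 4 without PAX6_Ta KO replicate 2, and 5 with the median of each chromosome arm taken out, and the 1 became 2 without PBX3_Cl KO replicate 2. The carbonic anhydrases CA1 and CA2, both on 8q, went opposite ways. CA1 stood at 0.937 and 1.04 CPM in PAX6_Ta KO, 9.48 and 11.4 in PBX3_Cl KO and 12.01 and 12.97 in Control (log2 fold change -3.40 ± 0.27, edgeR adjusted p = 7.1e-06), whereas CA2 stood at 15.9 and 11.7 CPM in PAX6_Ta KO, 2.79 and 2.36 in PBX3_Cl KO and 21.6 and 25.98 in Control. CA2 differed by 2.42 ± 0.25 on the log2 scale (edgeR adjusted p = 5.8e-05). GYPE, of the glycophorin family, stood at 14.9 and 10.7 CPM in PAX6_Ta KO, 34.98 and 32.5 in PBX3_Cl KO and 26.6 and 33.5 in Control. GYPE differed by -1.40 ± 0.22 on the log2 scale (edgeR adjusted p = 0.0015). DMTN, which links the skeleton to actin, stood at 59.4 and 44.7 CPM in PAX6_Ta KO, 116 and 166 in PBX3_Cl KO and 39.1 and 28.1 in Control. DMTN differed by -1.44 ± 0.24 on the log2 scale (edgeR adjusted p = 0.0021). ANK1, which anchors the membrane skeleton, stood at 518 and 523 CPM in PAX6_Ta KO, 909.9 and 1213 in PBX3_Cl KO and 810.5 and 679.6 in Control (log2 fold change -1.03 ± 0.23, edgeR adjusted p = 0.012; -1.03, adjusted p = 0.074 and -1.03, adjusted p = 0.069 without PAX6_Ta KO replicate 1 or 2, and -0.48, adjusted p = 0.26 with arm medians taken out).

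Haem synthesis and iron handling had 24 of 25 listed genes in the table, of which 23 were tested and 3 were called higher in PBX3_Cl KO (0 without PAX6_Ta KO replicate 1 or 2), with a median of 0.00. To set beside this list and the next, 12.0% of all tested genes were called in either direction. The shares were 5.26% higher in PAX6_Ta KO and 6.71% higher in PBX3_Cl KO. Of 29 erythroid transcription factors and partners, 26 were tested, with 4 higher in PAX6_Ta KO and 2 higher in PBX3_Cl KO. The 4 became 2 without PAX6_Ta KO replicate 1, and the 2 became 1 without PAX6_Ta KO replicate 2 or either Control replicate and 0 without PAX6_Ta KO replicate 1 or PBX3_Cl KO replicate 2. KLF13, a Krüppel-like factor, stood at 82.9 and 68.6 CPM in PAX6_Ta KO, 20.8 and 16.8 in PBX3_Cl KO and 51.9 and 41.4 in Control. KLF13 differed by 2.01 ± 0.21 on the log2 scale (edgeR adjusted p = 6.2e-05). ETS1, a factor of lymphoid and endothelial cells, stood at 5.58 and 3.46 CPM in PAX6_Ta KO, 1.38 and 1.18 in PBX3_Cl KO and 58.8 and 45.8 in Control (log2 fold change 1.82 ± 0.28, edgeR adjusted p = 0.0012), so both knockouts lay below Control. NFE2L2, which drives the response to oxidants, was higher in PAX6_Ta KO at 169 and 159.8 CPM in PAX6_Ta KO, 97.9 and 76.4 in PBX3_Cl KO and 81.1 and 72.97 in Control (log2 fold change 0.92 ± 0.20, edgeR adjusted p = 0.0093; 0.87, adjusted p = 0.07 without PAX6_Ta KO replicate 1).

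Genes of other blood lineages differed in both directions. Of all tested genes 5.26% were called higher in PAX6_Ta KO and 6.71% higher in PBX3_Cl KO. Of those that did not depend on 1 knockout to pass, 4.23% and 6.40% were. Of 30 megakaryocyte and platelet genes 22 were tested, with 4 higher in PAX6_Ta KO and 3 higher in PBX3_Cl KO (6 without either Control replicate). SPARC, a matrix protein of platelets and connective tissue, stood at 316 and 223 CPM in PAX6_Ta KO, 52.6 and 29.3 in PBX3_Cl KO and 66.1 and 44.1 in Control. SPARC differed by 2.72 ± 0.29 on the log2 scale (edgeR adjusted p = 1.0e-04). MMRN1, multimerin of platelet granules, stood at 5.08 and 2.77 CPM in PAX6_Ta KO, 0.0454 and 0.0218 in PBX3_Cl KO and 5.11 and 1.19 in Control, a ratio of 116 with a 95% interval from 39.4 to 565, edgeR adjusted p = 2.9e-04. SRGN, the granule proteoglycan, was lower in PAX6_Ta KO at 50.8 and 34.6 CPM in PAX6_Ta KO, 157 and 93.7 in PBX3_Cl KO and 118 and 111 in Control (log2 fold change -1.55 ± 0.26, edgeR adjusted p = 0.0021), and GP6, the collagen receptor of platelets, was higher at 47.1 and 34.5 CPM in PAX6_Ta KO, 19.9 and 15.2 in PBX3_Cl KO and 48.8 and 41.3 in Control. GP6 differed by 1.22 ± 0.22 on the log2 scale (edgeR adjusted p = 0.0037). Of 20 stem and progenitor genes 12 were tested, with 4 higher in PAX6_Ta KO and 1 higher in PBX3_Cl KO. Without 2 that passed only through PAX6_Ta KO, 2 and 1 of 10 were called, with a median of 0.51. KIT, the receptor of stem cell factor, stood at 16.4 and 15.8 CPM in PAX6_Ta KO, 3.15 and 1.83 in PBX3_Cl KO and 2.28 and 1.19 in Control. KIT differed by 2.69 ± 0.35 on the log2 scale (edgeR adjusted p = 3.7e-04). CD164, a sialomucin of progenitors, stood at 404 and 341 CPM in PAX6_Ta KO, 171 and 132 in PBX3_Cl KO and 289.6 and 249.8 in Control. CD164 differed by 1.30 ± 0.21 on the log2 scale (edgeR adjusted p = 0.0018). MECOM, a factor of stem cell maintenance, was the 1 higher in PBX3_Cl KO, at 24.6 and 25.2 CPM in PAX6_Ta KO, 57.6 and 52.2 in PBX3_Cl KO and 65.3 and 59.6 in Control. MECOM differed by -1.14 ± 0.18 on the log2 scale (edgeR adjusted p = 0.0016). CD22, a B cell receptor for sialic acid, led the lymphoid list at 21.5 and 17.1 CPM in PAX6_Ta KO, 2.43 and 1.96 in PBX3_Cl KO and 13.9 and 13.9 in Control. CD22 differed by 3.13 ± 0.24 on the log2 scale (edgeR adjusted p = 7.0e-06). The PBX3_Cl KO libraries were lowest for MMRN1, GP6, CD164 and CD22, and for SPARC they overlapped Control.

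The called genes of the HOXA and HOXD clusters were on in PAX6_Ta KO and nearly silent in PBX3_Cl KO and Control. These homeodomain factors specify position along the body axis, and the anterior HOXA genes and HOXA9 are active in blood progenitors. Of 39 HOX genes 27 passed the filter, and 12 of them were called higher in PAX6_Ta KO and 0 higher in PBX3_Cl KO (5.26% and 6.71% of all tested genes). All 12 were among 14 members that passed only through PAX6_Ta KO and thus had to be high there, so the count is a description. Of the other 13 none was called by edgeR (2 at an unadjusted p under 0.05, 0 by DESeq2), and their median was 0.12. At an unadjusted p under 0.05 the counts over the 27 were 16 and 0, and by DESeq2 10 and 0. The called genes came from the HOXA cluster on 7p and the HOXD cluster on 2q. HOXD13, of digits and limb ends, had 351 and 364 counts in PAX6_Ta KO, 0 and 0 in PBX3_Cl KO and 2 and 0 in Control, at least 213-fold higher in PAX6_Ta KO than the floor in PBX3_Cl KO (edgeR adjusted p = 6.3e-06). HOXA11, of limb and uterus, had 110 and 99 counts in PAX6_Ta KO, 0 and 0 in PBX3_Cl KO and 0 and 0 in Control, at least 62.2-fold higher (edgeR adjusted p = 1.1e-04). HOXA5 stood at 5.205 and 4.27 CPM in PAX6_Ta KO, 0.113 and 0 in PBX3_Cl KO and 0 and 0 in Control (log2 fold change 6.35 ± 0.86, edgeR adjusted p = 1.3e-04), and its call was lost with DESeq2 (6.39, adjusted p = 0.076). HOXA3 stood at 3.25 and 3.87 CPM in PAX6_Ta KO, 0.113 and 0.306 in PBX3_Cl KO and 0.0333 and 0.0198 in Control. HOXA3 differed by 4.06 ± 0.50 on the log2 scale (edgeR adjusted p = 1.9e-04). Control was as low as PBX3_Cl KO for these 4 genes. HOXA9 had 38 and 25 counts in PAX6_Ta KO, 0 and 0 in PBX3_Cl KO and 0 and 0 in Control. The 12 calls became 7 under the stricter low-count filter, which removed genes under 1 CPM.

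Of 15 TALE factors, the family of PBX3, 12 were tested and 1 was called, PKNOX2 (0.52 and 0.285 CPM in PAX6_Ta KO, 0 and 0.0655 in PBX3_Cl KO and 0 and 0 in Control, a ratio of 11.9 with a 95% interval from 3.79 to 60.1, edgeR adjusted p = 0.034), which lost its call without PAX6_Ta KO replicate 1 (adjusted p = 0.20) or PBX3_Cl KO replicate 1 (2.61, adjusted p = 0.12) and with DESeq2 (3.64, adjusted p = 0.073). PKNOX2 passed the filter only through PAX6_Ta KO and thus had to be high there, so its call is a description. None of the other 11 TALE genes was called. All 32 Polycomb subunits in the table were tested, with 4 higher in PBX3_Cl KO and 0 higher in PAX6_Ta KO (6 and 0 at an unadjusted p under 0.05, and 4 and 0 by DESeq2). The share called was 12.5% of the list, near the 12.0% called over all tested genes in either direction. Of all tested genes 6.71% were called higher in PBX3_Cl KO. The 4 became 2 without PAX6_Ta KO replicate 1, 1 without replicate 2 and 2 with arm medians taken out. PHF19 is among them. CBX2, a chromobox protein of Polycomb repressive complex 1, stood at 86.7 and 84.9 CPM in PAX6_Ta KO, 162 and 175 in PBX3_Cl KO and 181 and 158 in Control (log2 fold change -0.97 ± 0.19, edgeR adjusted p = 0.0049; -0.95, adjusted p = 0.061 without PAX6_Ta KO replicate 2). EZH2, the methyltransferase, stood at 88.8 and 89.95 CPM in PAX6_Ta KO, 162 and 173 in PBX3_Cl KO and 135 and 131 in Control (log2 fold change -0.90 ± 0.18, edgeR adjusted p = 0.0064; -0.90, adjusted p = 0.08 and -0.91, adjusted p = 0.075 without PAX6_Ta KO replicate 1 or 2, and -0.33, adjusted p = 0.34 with arm medians taken out).

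Matrix and mesenchymal genes differed in both directions. Of all tested genes 5.26% were called higher in PAX6_Ta KO and 6.71% higher in PBX3_Cl KO. Of those that did not depend on 1 knockout to pass, 4.23% and 6.40% were. Of 30 fibroblast and mesenchymal genes, 20 passed the filter, and 8 of these were higher in PAX6_Ta KO and 3 higher in PBX3_Cl KO. Among them 4, COL1A1 included, passed only through PAX6_Ta KO, and without these the counts were 4 and 3 of 16, with a median of 0.46. Their summed level was 750 to 875 CPM in PAX6_Ta KO, 396 to 448 in PBX3_Cl KO and 322 to 444 in Control, while PDGFRA had between 0 and 4 reads in each knockout library. COL1A1 and COL1A2, the chains of type I collagen, stood at 4.66 and 3.93 and 17.8 and 18.8 CPM in PAX6_Ta KO, 0.181 and 0.48 and 1.38 and 1.703 in PBX3_Cl KO and 0.133 and 0.139 and 48.7 and 133 in Control, with log2 fold changes of 3.68 ± 0.46 and 3.56 ± 0.38 (edgeR adjusted p = 2.5e-04 and 9.6e-05). VIM, the intermediate filament of mesenchymal cells, stood at 412 and 398 CPM in PAX6_Ta KO, 129.8 and 73.5 in PBX3_Cl KO and 102 and 157 in Control. VIM differed by 1.99 ± 0.28 on the log2 scale (edgeR adjusted p = 6.3e-04). CNN1, calponin of smooth muscle, stood at 12.3 and 9.84 CPM in PAX6_Ta KO, 0.953 and 0.83 in PBX3_Cl KO and 15.5 and 15.8 in Control. CNN1 differed by 3.63 ± 0.27 on the log2 scale (edgeR adjusted p = 4.7e-06). FN1, fibronectin, went the other way at 88.4 and 74.4 CPM in PAX6_Ta KO, 187 and 163 in PBX3_Cl KO and 69.6 and 76.2 in Control. FN1 differed by -1.11 ± 0.19 on the log2 scale (edgeR adjusted p = 0.0025).

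Among 70 collagens and integrins 52 were tested, 9 were higher in PAX6_Ta KO and 4 higher in PBX3_Cl KO (5.26% and 6.71% of all tested genes). Without those that passed only through 1 knockout, 7 and 3 of 46 were called (4.23% and 6.40% over all such genes), with a median of 0.42. COL14A1 stood at 43.3 and 38.6 CPM in PAX6_Ta KO, 6.01 and 3.75 in PBX3_Cl KO and 0.283 and 0.396 in Control (log2 fold change 3.07 ± 0.26, edgeR adjusted p = 1.4e-05), and COL4A2 of basement membranes at 18.1 and 13.9 CPM in PAX6_Ta KO, 1.27 and 1.05 in PBX3_Cl KO and 5.58 and 3.41 in Control. COL4A2 differed by 3.78 ± 0.32 on the log2 scale (edgeR adjusted p = 1.4e-05). COL4A5, of the same family, was higher in PBX3_Cl KO at 0.77 and 0.456 CPM in PAX6_Ta KO, 12.8 and 14.2 in PBX3_Cl KO and 3.43 and 3.68 in Control (log2 fold change -4.46 ± 0.32, edgeR adjusted p = 4.7e-06), as was COL5A1 above. ITGAV, a receptor subunit for vitronectin and fibronectin, stood at 158 and 149 CPM in PAX6_Ta KO, 75.8 and 52.02 in PBX3_Cl KO and 65.4 and 65.8 in Control. ITGAV differed by 1.26 ± 0.21 on the log2 scale (edgeR adjusted p = 0.0019). Of 37 cell adhesion molecules 25 passed the filter, and these split into 5 higher in PAX6_Ta KO and 6 higher in PBX3_Cl KO (3 without PAX6_Ta KO replicate 1 or 2). PCDH7, a protocadherin, stood at 6.56 and 10.4 CPM in PAX6_Ta KO, 0.0454 and 0.0437 in PBX3_Cl KO and 1.85 and 2.77 in Control. PCDH7 differed by 7.49 ± 0.73 on the log2 scale (edgeR adjusted p = 2.7e-06). MCAM, an adhesion molecule of vessels, stood at 222 and 167 CPM in PAX6_Ta KO, 28.7 and 9.52 in PBX3_Cl KO and 159 and 178 in Control. MCAM differed by 3.35 ± 0.37 on the log2 scale (edgeR adjusted p = 1.6e-04). EPHB6, an ephrin receptor without kinase activity, was higher in PBX3_Cl KO at 9.01 and 5.49 CPM in PAX6_Ta KO, 92.998 and 68.3 in PBX3_Cl KO and 24.3 and 30.5 in Control (log2 fold change -3.48 ± 0.26, edgeR adjusted p = 6.1e-06), and so was ICAM1, a ligand of leukocyte integrins, at 18.8 and 16.3 CPM in PAX6_Ta KO, 49.8 and 39.1 in PBX3_Cl KO and 26.97 and 30.04 in Control. ICAM1 differed by -1.34 ± 0.20 on the log2 scale (edgeR adjusted p = 0.0011). Of 39 genes of actin and adhesion sites 36 were tested, with 6 and 2 called (2 and 1 without PAX6_Ta KO replicate 1 or 2). ENAH led them, and FERMT3, the integrin activator of blood cells, was higher in PBX3_Cl KO at 162 and 137 CPM in PAX6_Ta KO, 450.3 and 469 in PBX3_Cl KO and 281 and 227 in Control. FERMT3 differed by -1.62 ± 0.21 on the log2 scale (edgeR adjusted p = 3.0e-04).

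Lists of tissues far from blood also held called genes. Of 40 heart genes 23 were tested, 7 were higher in PAX6_Ta KO and 2 higher in PBX3_Cl KO (1 without PAX6_Ta KO replicate 1 or 2), against 5.26% and 6.71% of all tested genes. Of the 23, 4 passed only through PAX6_Ta KO, MYH6 included, and without them 4 and 2 of 19 were called, with a median of 0.52. MYH6, the alpha myosin heavy chain of atrial muscle, stood at 9.31 and 3.38 CPM in PAX6_Ta KO, 0.0227 and 0.0873 in PBX3_Cl KO and 0.366 and 0.119 in Control. MYH6 differed by 6.77 ± 0.95 on the log2 scale (edgeR adjusted p = 9.8e-05). GATA6 stood at 3.02 and 3.11 CPM in PAX6_Ta KO, 0.431 and 0.546 in PBX3_Cl KO and 3.43 and 4.81 in Control. GATA6 differed by 2.64 ± 0.37 on the log2 scale (edgeR adjusted p = 5.5e-04). DMD, dystrophin, was higher in PBX3_Cl KO at 25.1 and 24.4 CPM in PAX6_Ta KO, 49.2 and 50.5 in PBX3_Cl KO and 44.3 and 42.3 in Control. DMD differed by -1.01 ± 0.18 on the log2 scale (edgeR adjusted p = 0.0031). Of 28 eye and PAX network genes, 11 passed the filter, with 3 higher in PAX6_Ta KO and 1 higher in PBX3_Cl KO (2 without PBX3_Cl KO replicate 2, 0 without PAX6_Ta KO replicate 1 or 2). PAX3 had 21 and 9 counts in PAX6_Ta KO, 0 and 0 in PBX3_Cl KO and 20 and 26 in Control, at least 8.93-fold higher in PAX6_Ta KO than the floor in PBX3_Cl KO (edgeR adjusted p = 0.0084). KIF1A, a motor of neuronal transport, was higher in PBX3_Cl KO at 1.35 and 1.44 CPM in PAX6_Ta KO, 27.7 and 52.8 in PBX3_Cl KO and 0.0167 and 0.0198 in Control (log2 fold change -4.84 ± 0.30, edgeR adjusted p = 2.1e-06), and GAD1, which makes the transmitter GABA, was higher in PAX6_Ta KO at 66.3 and 62.5 CPM in PAX6_Ta KO, 6.102 and 5.55 in PBX3_Cl KO and 15.4 and 26.3 in Control. GAD1 differed by 3.47 ± 0.25 on the log2 scale (edgeR adjusted p = 4.8e-06). EPCAM, an epithelial adhesion molecule, was lower in PAX6_Ta KO at 3.66 and 2.13 CPM in PAX6_Ta KO, 26.8 and 21.9 in PBX3_Cl KO and 42.3 and 45.5 in Control (log2 fold change -3.07 ± 0.26, edgeR adjusted p = 1.3e-05), and TP63, a factor of stratified epithelia, was higher at 5.41 and 5.603 CPM in PAX6_Ta KO, 0.272 and 0.262 in PBX3_Cl KO and 0.3 and 0.0792 in Control. TP63 differed by 4.35 ± 0.49 on the log2 scale (edgeR adjusted p = 1.0e-04).

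Receptors divided between the lines. Of all tested genes 5.26% were called higher in PAX6_Ta KO and 6.71% higher in PBX3_Cl KO. Of 44 growth factor and cytokine receptors 37 were tested, with 6 higher in PAX6_Ta KO and 4 higher in PBX3_Cl KO and a median of -0.06 (0.02 without 2 that passed only through PBX3_Cl KO). FGFR1 stood at 6.39 and 4.05 CPM in PAX6_Ta KO, 0.431 and 0.589 in PBX3_Cl KO and 0.3 and 0.396 in Control (log2 fold change 3.35 ± 0.40, edgeR adjusted p = 2.0e-04) and IL17RB at 5.48 and 6.99 CPM in PAX6_Ta KO, 1.13 and 1.07 in PBX3_Cl KO and 1.75 and 2.14 in Control (log2 fold change 2.50 ± 0.33, edgeR adjusted p = 3.6e-04), both higher in PAX6_Ta KO, as was KIT. IL18R1 stood at 0.0833 and 0.057 CPM in PAX6_Ta KO, 3.36 and 3.84 in PBX3_Cl KO and 0.566 and 0.396 in Control (log2 fold change -5.64 ± 0.58, edgeR adjusted p = 1.6e-05), IL4R at 4.89 and 4.39 CPM in PAX6_Ta KO, 21.5 and 17.1 in PBX3_Cl KO and 13.03 and 12.6 in Control (log2 fold change -2.06 ± 0.23, edgeR adjusted p = 1.1e-04) and TGFBR2 at 0.958 and 0.57 CPM in PAX6_Ta KO, 6.76 and 4.803 in PBX3_Cl KO and 0.849 and 0.277 in Control (log2 fold change -2.92 ± 0.47, edgeR adjusted p = 0.0019), all higher in PBX3_Cl KO. FAS, a death receptor, had 0 and 0 counts in PAX6_Ta KO, 84 and 45 in PBX3_Cl KO and 4 and 7 in Control, at least 48.2-fold higher in PBX3_Cl KO than the floor in PAX6_Ta KO (edgeR adjusted p = 2.3e-04). TNFRSF10A, a receptor of the ligand TRAIL, stood at 22.9 and 19.5 CPM in PAX6_Ta KO, 69.5 and 54.5 in PBX3_Cl KO and 57.1 and 51.3 in Control. TNFRSF10A differed by -1.55 ± 0.20 on the log2 scale (edgeR adjusted p = 3.3e-04). Of 46 apoptosis genes, 40 passed the filter, with 7 higher in PBX3_Cl KO and 2 higher in PAX6_Ta KO (6.71% and 5.26% of all tested genes). Without those that passed only through 1 knockout, FAS and CASP4 included, they were 4 and 2 of 36. The 7 were 3 without PAX6_Ta KO replicate 2 and 4 without replicate 1 of either knockout, and the 2 became 1 without PAX6_Ta KO replicate 1 or PBX3_Cl KO replicate 2 and 5 without PBX3_Cl KO replicate 1. CASP4, a caspase of inflammation, stood at 0.0833 and 0.095 CPM in PAX6_Ta KO, 1.16 and 0.808 in PBX3_Cl KO and 0.0167 and 0 in Control (log2 fold change -3.42 ± 0.65, edgeR adjusted p = 0.0028), and BOK, a pore-forming death protein of mitochondria and the endoplasmic reticulum, was higher in PAX6_Ta KO at 8.91 and 7.67 CPM in PAX6_Ta KO, 1.86 and 1.35 in PBX3_Cl KO and 1.57 and 2.08 in Control. BOK differed by 2.37 ± 0.32 on the log2 scale (edgeR adjusted p = 4.8e-04).

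Cell cycle genes were counted in 2 lists, beside 12.0% called over all tested genes (5.26% higher in PAX6_Ta KO and 6.71% higher in PBX3_Cl KO). Of the 50 G2/M genes tested 1 was called, higher in PAX6_Ta KO (0 without PAX6_Ta KO replicate 1 or PBX3_Cl KO replicate 2 and 4 without PBX3_Cl KO replicate 1), and of the 48 G1/S genes 1 was higher in PAX6_Ta KO (3 without PBX3_Cl KO replicate 1) and 4 higher in PBX3_Cl KO (1 without PAX6_Ta KO replicate 1 or 2, 2 without PBX3_Cl KO replicate 1 and 0 with arm medians taken out), which is 10.4% of the G1/S list. CCND1, cyclin D1, was the G1/S gene higher in PAX6_Ta KO, at 13.6 and 10.4 CPM in PAX6_Ta KO, 3.47 and 2.53 in PBX3_Cl KO and 7.53 and 18.99 in Control. CCND1 differed by 2.00 ± 0.38 on the log2 scale (edgeR adjusted p = 0.005). None of 82 tested ribosomal protein genes was called (2 higher and 1 lower in PAX6_Ta KO at an unadjusted p under 0.05 by edgeR, 0 by DESeq2). Of 34 tested genes of BCR-ABL signalling and STAT targets 4 were higher in PBX3_Cl KO (1 without PAX6_Ta KO replicate 1 or 2, 2 with arm medians taken out). SHC1, an adaptor of tyrosine kinases, led them at 116 and 93.7 CPM in PAX6_Ta KO, 232 and 207 in PBX3_Cl KO and 128 and 112 in Control (log2 fold change -1.07 ± 0.20, edgeR adjusted p = 0.004; -0.92, adjusted p = 0.074 without PAX6_Ta KO replicate 2).

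Imprinted genes, which are expressed from 1 parental allele, included several of the widest differences. Of all tested genes 5.26% were called higher in PAX6_Ta KO and 6.71% higher in PBX3_Cl KO. Of 35 listed, 23 passed the filter, 5 of which were higher in PAX6_Ta KO (3 without PAX6_Ta KO replicate 1) and 2 higher in PBX3_Cl KO, with a median of 0.11. Without 1 gene in each direction that passed only through 1 knockout, 4 and 1 of 21 were called. ZNF597, given below, was the 1 that passed only through PBX3_Cl KO, so its call is a description. Besides DLK1, H19, a noncoding RNA of the maternal allele on 11p, stood at 429.8 and 216 CPM in PAX6_Ta KO, 3.11 and 2.07 in PBX3_Cl KO and 17.2 and 27.4 in Control. H19 differed by 6.96 ± 0.34 on the log2 scale (edgeR adjusted p = 6.6e-07). NDN stood at 11.4 and 7.16 CPM in PAX6_Ta KO, 1.93 and 1.35 in PBX3_Cl KO and 0.949 and 0.772 in Control. NDN differed by 2.50 ± 0.34 on the log2 scale (edgeR adjusted p = 5.6e-04). NAP1L5 was higher in PBX3_Cl KO at 0.125 and 0.133 CPM in PAX6_Ta KO, 4.51 and 3.65 in PBX3_Cl KO and 5.55 and 4.95 in Control (log2 fold change -4.96 ± 0.44, edgeR adjusted p = 7.2e-06), as was ZNF597 at 0.0208 and 0.019 CPM in PAX6_Ta KO, 1.81 and 2.53 in PBX3_Cl KO and 0 and 0 in Control, a ratio of 109.8 with a 95% interval from 29.99 to 913, edgeR adjusted p = 7.3e-05. Of 54 cancer-testis antigens, germ cell genes, most of them on chromosome X, that tumours often express, 23 were tested, 12 were higher in PBX3_Cl KO and 1 higher in PAX6_Ta KO (0 without PAX6_Ta KO replicate 1 or 2 or PBX3_Cl KO replicate 2 and 2 without either Control replicate), with a median of -0.77 (-0.76, with 11 and 1 of 22, without 1 gene that passed only through PBX3_Cl KO). MAGEC1 stood at 39.2 and 29.6 CPM in PAX6_Ta KO, 144 and 147 in PBX3_Cl KO and 63.5 and 45.2 in Control (log2 fold change -2.08 ± 0.22, edgeR adjusted p = 7.2e-05), MAGEC2 at 26.4 and 15.9 CPM in PAX6_Ta KO, 115 and 77.4 in PBX3_Cl KO and 47.5 and 24.7 in Control (log2 fold change -2.18 ± 0.32, edgeR adjusted p = 9.7e-04) and PAGE5 at 20.99 and 14.7 CPM in PAX6_Ta KO, 59.3 and 47.3 in PBX3_Cl KO and 4.797 and 2.63 in Control. PAGE5 differed by -1.58 ± 0.28 on the log2 scale (edgeR adjusted p = 0.0028). In MAGEC1 and MAGEC2 PAX6_Ta KO was nearer to Control, and in PAGE5 both knockouts lay above it. These genes have near-identical copies, so reads may be shared among them.

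Zinc finger genes named ZNF were called each way, 45 higher in PAX6_Ta KO and 42 higher in PBX3_Cl KO of 464 tested (5.26% and 6.71% of all tested genes). Of the 464, 27 passed only through PAX6_Ta KO and 9 only through PBX3_Cl KO. Without them 24 and 38 of 428 were called (4.23% and 6.40% over all such genes). The 42 became 17 without PAX6_Ta KO replicate 1 or 2 and 22 with arm medians taken out. On 19p and 19q, which carry large clusters of them, 15 and 16 were higher in PAX6_Ta KO against 8 and 6, of 77 and 147 tested, and 8 and 8 against 7 and 6 without those genes. On 7q 2 were higher in PAX6_Ta KO and 11 in PBX3_Cl KO of 24. ZNF736, on 7q, stood at 22.98 and 27.1 CPM in PAX6_Ta KO, 0.408 and 0.699 in PBX3_Cl KO and 1.999 and 1.74 in Control. ZNF736 differed by 5.49 ± 0.31 on the log2 scale (edgeR adjusted p = 7.2e-07). ZNF724 of 19p stood at 30.8 and 33.3 CPM in PAX6_Ta KO, 0.612 and 0.437 in PBX3_Cl KO and 0.483 and 0.198 in Control (log2 fold change 5.93 ± 0.35, edgeR adjusted p = 9.3e-07) and ZNF827 of 4q at 11.7 and 11.4 CPM in PAX6_Ta KO, 0.068 and 0.131 in PBX3_Cl KO and 0.0666 and 0.0396 in Control. ZNF827 differed by 6.82 ± 0.49 on the log2 scale (edgeR adjusted p = 1.2e-06). Control was low for the last 2 and between the knockouts for ZNF736. ZNF827 passed the filter only through PAX6_Ta KO, so its call is a description. Of 39 tested replication-dependent histone genes 2 were called, H2BC1 and H2AC1, a pair of testis histones side by side on 6p. H2BC1 stood at 29.1 and 28.2 CPM in PAX6_Ta KO, 1.16 and 0.764 in PBX3_Cl KO and 148 and 183 in Control (log2 fold change 4.90 ± 0.25, edgeR adjusted p = 2.7e-07) and H2AC1 at 28.7 and 17.8 CPM in PAX6_Ta KO, 1.02 and 0.611 in PBX3_Cl KO and 227 and 129.6 in Control (log2 fold change 4.83 ± 0.36, edgeR adjusted p = 5.1e-06), so both knockouts lay below Control and PBX3_Cl KO lowest.

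**Figure D4:**
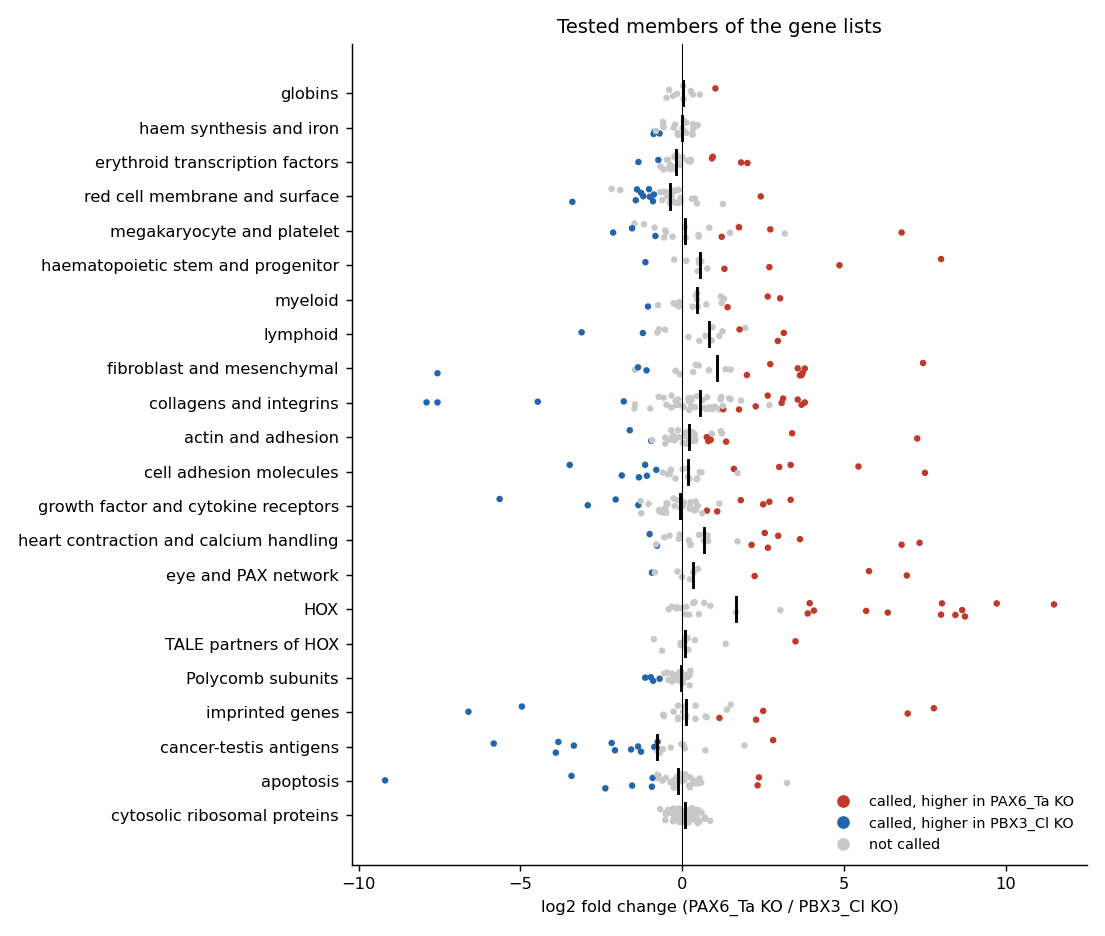
Fitted log2 fold change of PAX6_Ta KO over PBX3_Cl KO (horizontal axis) of the tested members of 22 gene lists, each point 1 gene and each black bar the median of its list, with called genes coloured. Of the lists shown, the cancer-testis antigens have the median furthest to the left (-0.77). The bars of HOX (1.66) and of the fibroblast and mesenchymal list (1.08) lie to the right but rest on genes that passed the filter only through PAX6_Ta KO (0.12 and 0.46 without them), and no ribosomal protein gene is coloured. Fitted values of genes with few or no reads in one line depend on the prior count.

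The difference between the lines also followed the chromosomes. Over the arms with at least 50 tested genes, the median log2 fold change was lowest on 7q, 8p and 2p, at -0.57, -0.55 and -0.41, and highest on 18p, 8q and 14q, at 0.38, 0.34 and 0.32, against -0.01 over all genes. On 7q 166 of 656 tested genes were called higher in PBX3_Cl KO and 28 higher in PAX6_Ta KO, on 8p 49 and 11 of 235, and on 2p 68 and 19 of 538 (6.71% and 5.26% of all tested genes). The medians kept their sign when replicate 1 was set against replicate 1 and replicate 2 against replicate 2, with 0.5 CPM added, at -0.39 and -0.45 on 7q, -0.38 and -0.35 on 8p and -0.35 and -0.31 on 2p. The 166 genes of 7q became 78 and 55 without PAX6_Ta KO replicates 1 and 2, the 49 of 8p became 22 and 16, and the 68 of 2p became 28 and 20. Protein-coding genes at 10 CPM or more in the knockouts had medians of -1.07 between 70 and 80 Mb of chromosome 7 (25 genes), -0.69 and -0.73 between 150 and 160 and between 160 and 170 Mb of chromosome 1 (112 and 48 genes) and 0.51 between 170 and 180 Mb of chromosome 2 (40 genes). Of the genes named above, DMTN, TNFRSF10A, ANK1 and FGFR1 lie on 8p, EPHB6, EZH2, AKR1B1, COL1A2 and ZNF736 on 7q and EPCAM on 2p. HDGF and SHC1, both higher in PBX3_Cl KO, lie between 150 and 160 Mb of chromosome 1. The median of 1q was only -0.04, so taking out arm medians leaves the shift of that stretch in place. Whether their differences go beyond that shift was not tested. FGFR1, AKR1B1, COL1A2 and ZNF736 went against their arm and were higher in PAX6_Ta KO. CA2, also higher in PAX6_Ta KO, lies on 8q, and the named genes on the arms with the highest medians are not all listed here. On Xp and Xq 13.7% and 18.4% of tested genes were called higher in PBX3_Cl KO, and most of the cancer-testis antigens lie on chromosome X. ANK1 (-0.48, adjusted p = 0.26) and EZH2 (-0.33, adjusted p = 0.34) lost their calls with the median of each arm taken out, and no other named gene did. Under the same setting 1920 of the 2483 called genes kept their call, and 1033 genes were higher in PAX6_Ta KO and 1003 higher in PBX3_Cl KO. RNA levels do not show whether the copy number of an arm differed between the lines, which was not tested.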

How the data were processed

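RNA-seq libraries (2 per group) were made with a stranded kit. The authors trimmed adaptors with Cutadapt 3.4, aligned reads to GRCh37 with STAR and deposited raw counts per gene. No source used here gives the STAR version or the strand setting of the counting. The deposited comparison tables (fold changes and p-values of each knockout against control, by the authors) and 4 count columns of other samples were not used.

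Counts were filtered (filterByExpr), scaled by TMM and fitted with edgeR 4.0.16 in R 4.3.3 over all 6 libraries, with Benjamini-Hochberg adjustment. Control entered the filter, scaling and spread only. Library totals were 45912044 to 60908470 reads, and counting error is small beside the spread between libraries except for genes with few reads. Entries were placed on GRCh37 by symbol (36661) or identifier (13602), and 1825 were not placed. The fit was tested on simulated data. Alternatives were DESeq2 1.42.0, other scalings and filters, the knockouts alone, a replicate block, arm medians taken out and each library left out.

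Named genes were those with the largest folds, highest levels or lowest adjusted p in each direction, the 4 smallest p of each of 41 lists, called genes within 5 Mb of an element, globins and selected erythroid factors. COL1A1, FN1, HOXA3, ICAM1, ITGAV, MAGEC2, NDN, PAGE5, TGFBR2 and VIM were named outside this rule after their values were seen. Genes and lists were chosen with earlier results of these data known, and the counts without genes that passed the filter only through 1 knockout were added after the values were seen. Genes of chromosome Y, XIST and some other genes that the rule names are not reported here.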

Additional observations from a re-analysis of the deposited data

How the results depend on the processing

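No called gene of the comparison was called in the opposite direction under any alternative that tested it. The counts of genes higher in PAX6_Ta KO and in PBX3_Cl KO ranged from 662 to 1425 and from 606 to 1535 when each library was left out, and were 1182 and 1414 with DESeq2, 1546 and 1571 with no filter on low counts and 904 and 1099 with the stricter filter. The genes called around PAX6_Ta ranged from 4 to 11 and those around PBX3_Cl from 17 to 35 without 1 library. The causes were not tested. The replicate numbers are shared by the groups, but nothing in the sources says what they mark. Deviations of same-numbered libraries correlated at 0.47 between the knockouts, 0.49 between PAX6_Ta KO and Control and 0.26 between PBX3_Cl KO and Control. With the replicate block the counts were 1672 and 2205. All 2483 calls were kept, HBE1 (0.54, adjusted p = 0.025) and KLF1 (-0.60, adjusted p = 0.028) were called in addition, and no other call of a named gene changed.

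Fold changes of uncalled genes near 0 changed sign. PBX3 was at 0.00067 with the knockouts alone, 0.0045 with the stricter filter and 0.043 with upper-quartile factors. Without 1 library, PBX3 ranged from -0.14 to 0.045, ELP4 from -0.20 to 0.44, HBG1 from -0.018 to 0.53, HBZ from -0.16 to 0.29 and MAPKAP1 from -0.29 to 0.064. With 2 libraries per line, modest differences may be missed, and folds of genes with few reads are bounds or wide intervals.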

Other observations

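Beyond the gene groups described above, an unnamed transcript gave one of the widest gaps. ENSG00000266976, a long noncoding RNA of 19q (chr19:29097595-29106136) chosen after its values were seen, had 119 and 193 counts in PAX6_Ta KO, 34077 and 36183 in PBX3_Cl KO and 72948 and 45076 in Control (log2 fold change -7.99 ± 0.26, edgeR adjusted p = 4.9e-08). PBX3_Cl KO lay near Control and PAX6_Ta KO stood apart. By gene type, 821 of 13390 tested protein-coding genes were higher in PAX6_Ta KO and 1155 higher in PBX3_Cl KO, against 165 and 140 of 3637 long noncoding RNAs and 49 and 31 of 1961 processed pseudogenes. Over all tested genes 5.26% and 6.71% were called. The types were not matched for level, so these counts do not compare the types as such.

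Of 32 tested interferon-stimulated genes 4 were higher in each line (the 4 of PAX6_Ta KO became 2 without PAX6_Ta KO replicate 1 or PBX3_Cl KO replicate 2). USP18, a protease of the interferon response, stood at 0.0833 and 0.038 CPM in PAX6_Ta KO, 1.202 and 0.83 in PBX3_Cl KO and 0.0833 and 0.0396 in Control (log2 fold change -4.03 ± 0.72, edgeR adjusted p = 0.0014), and RSAD2, viperin, at 2.35 and 2.36 CPM in PAX6_Ta KO, 12.4 and 18.3 in PBX3_Cl KO and 4.31 and 1.33 in Control. RSAD2 differed by -2.71 ± 0.43 on the log2 scale (edgeR adjusted p = 0.0017). Without genes of this list that passed the filter only through 1 knockout, USP18 included, 4 of 29 were higher in PAX6_Ta KO and 3 higher in PBX3_Cl KO. The shares were 5.26% and 6.71% over all tested genes, and 4.23% and 6.40% over those that did not depend on 1 knockout to pass. IFITM3, which hinders virus entry, was higher in PAX6_Ta KO at 4.06 and 4.25 CPM in PAX6_Ta KO, 1.497 and 1.29 in PBX3_Cl KO and 21.4 and 28.6 in Control. IFITM3 differed by 1.58 ± 0.27 on the log2 scale (edgeR adjusted p = 0.002). Of 34 tested genes of cholesterol and fatty acid synthesis 6 were higher in PBX3_Cl KO and 0 higher in PAX6_Ta KO, with a median of -0.26 (3 without PAX6_Ta KO replicate 1, 1 without replicate 2 and 2 without PBX3_Cl KO replicate 1).

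Over all tested genes 12.0% were called, against 11.8% of the hypoxia list, 15.2% of the immediate-early list and 16.7% of the mTOR list. NDRG1, a gene induced by low oxygen, stood at 91.2 and 69.9 CPM in PAX6_Ta KO, 13.4 and 7.01 in PBX3_Cl KO and 28.2 and 19.3 in Control (log2 fold change 2.98 ± 0.29, edgeR adjusted p = 5.3e-05), and JDP2, a repressor of AP-1, at 11.9 and 6.63 CPM in PAX6_Ta KO, 0.975 and 1.35 in PBX3_Cl KO and 0 and 0.0198 in Control. JDP2 differed by 2.99 ± 0.39 on the log2 scale (edgeR adjusted p = 4.1e-04). The hypoxia list had 1 gene higher in PAX6_Ta KO and 3 higher in PBX3_Cl KO of 34 tested, the 1 becoming 4 without PBX3_Cl KO replicate 1 and the 3 becoming 1 and 0 without PAX6_Ta KO replicates 1 and 2. Immediate-early and AP-1 genes had 2 and 3 of 33, the 3 becoming 1 and 0 without the same libraries. SESN3, a sestrin that restrains mTOR complex 1, stood at 52.8 and 51.4 CPM in PAX6_Ta KO, 11.2 and 8.798 in PBX3_Cl KO and 26.2 and 18.9 in Control (log2 fold change 2.38 ± 0.22, edgeR adjusted p = 2.8e-05), and ZBTB38, which binds methylated DNA, at 14.4 and 12.004 CPM in PAX6_Ta KO, 63.4 and 43.7 in PBX3_Cl KO and 83.7 and 67.7 in Control. ZBTB38 differed by -2.02 ± 0.23 on the log2 scale (edgeR adjusted p = 1.1e-04).

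Of all tested genes 5.26% were called higher in PAX6_Ta KO and 6.71% higher in PBX3_Cl KO, 12.0% in either direction. Of the genes that did not depend on 1 knockout to pass, 4.23% and 6.40% were called. In the smaller counts, the first number is higher in PAX6_Ta KO and the second higher in PBX3_Cl KO. They were 2 and 3 of 30 mTOR genes, 3 and 2 of 28 CDK inhibitors and p53 targets, 2 and 1 of 32 genes of the integrated stress response, 0 and 2 of 16 DNA methylation genes, 1 and 0 of 11 complement regulators, 0 and 1 of 15 clustered protocadherins, 3 and 1 of 18 myeloid, 3 and 2 of 16 lymphoid, 5 and 3 of 18 epithelial and 3 and 1 of 13 neuronal genes. Without PAX6_Ta KO replicate 1 the counts were 1 and 1 for mTOR, 0 and 1 for p53, 0 and 0 for the stress response, 0 for complement, 0 for protocadherins, 1 for myeloid genes higher in PAX6_Ta KO, 2 for epithelial and 1 for neuronal genes higher in PAX6_Ta KO, and 1 for DNA methylation and for lymphoid genes higher in PBX3_Cl KO. Without PAX6_Ta KO replicate 2 they were 1 and 0 for mTOR, 2 for complement, 1 for neuronal genes higher in PAX6_Ta KO, 1 for p53 targets and for DNA methylation genes higher in PBX3_Cl KO, and 0 for stress response, protocadherin, myeloid and lymphoid genes higher in PBX3_Cl KO. Without PBX3_Cl KO replicate 1 they were 1 and 1 for mTOR, 0 and 0 for myeloid, 5 and 1 for lymphoid, 0 for complement, 1 for stress response genes higher in PAX6_Ta KO and 1 for p53 targets higher in PBX3_Cl KO. Without PBX3_Cl KO replicate 2, those higher in PAX6_Ta KO were 1 for the stress response, 1 for myeloid, 2 for epithelial and 0 for complement genes, and the protocadherin count was 0. Without either Control replicate the complement count was 2. With every library kept, but without genes that passed the filter only through 1 knockout, the counts were 1 and 3 of 29 for mTOR and 3 and 1 of 27 for p53 targets. They were 2 and 1 of 17 myeloid, 3 and 1 of 14 lymphoid, 4 and 3 of 16 epithelial and 3 and 1 of 12 neuronal genes. Of 10 tested S100 and SPRR genes 3 were higher in PBX3_Cl KO (2 of 9 without 1 that passed only through PBX3_Cl KO), among them S100A16 at 2.08 and 1.39 CPM in PAX6_Ta KO, 22.7 and 9.89 in PBX3_Cl KO and 0.716 and 0.416 in Control. S100A16 differed by -3.23 ± 0.40 on the log2 scale (edgeR adjusted p = 3.2e-04). It lies between 150 and 160 Mb of chromosome 1, where protein-coding genes at 10 CPM or more had a median of -0.69. None of the 13 protein-coding genes of the mitochondrial genome was called by edgeR, with a median of -0.46, although 3 had an unadjusted p under 0.05, and DESeq2 called 0.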
